A study of Mus musculus with 24 samples.

Results

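The 10 genes described here are 8 annexins (Anxa1, Anxa2, Anxa3, Anxa4, Anxa5, Anxa6, Anxa7 and Anxa11) and S100a10 and S100a11, the S100 proteins best known as annexin partners. They were chosen by gene symbol from the 18314 entries of a long RNA count table of mouse liver, and all 10 symbols were found once, each with an Ensembl ID that carried the same symbol in the reference list. No measured value set a threshold for a gene, but the list was drawn up with earlier results of these libraries known, and the libraries compared were chosen from measured values, as given below. Annexins are proteins that bind acidic phospholipids of membranes when calcium rises, and they serve in membrane repair, vesicle traffic, clotting and the control of inflammation. S100a10 and S100a11 are small proteins of the EF-hand family that join annexins in pairs, S100a10 with annexin A2 and S100a11 with annexin A1. S100a10 is an exception in its family, because it no longer binds calcium, and its protein is unstable without annexin A2.

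The study asked how Huatanqushihuoxue Formula (HQHF), a herbal formula, acts in metabolic dysfunction-associated fatty liver disease (MAFLD). The groups were wild-type (WT) male C57BL/6 mice on a high-fat diet (HFD) that received HQHF by gavage after 12 weeks of that diet, WT mice on the HFD alone, and WT control mice on a normal diet. The design names 9 mice per group and 3 doses of HQHF, and the labels of the libraries give neither the dose nor the age of the mice. Bulk total RNA of liver was sequenced after removal of ribosomal RNA, 4 libraries per group, each titled with a replicate number and tagged with a batch code of its own.

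The library of HFD plus HQHF 3 and that of control 2 stood apart and were left out of the main comparisons. Alb, which encodes the albumin that hepatocytes secrete, had 0.743 and 46.4 CPM (counts scaled to a common library total) in those libraries, against 35054 to 92208 CPM in the other 10. Adipoq, the adipocyte hormone adiponectin, had 1254 and 4543 CPM in them and at most 41.2 CPM in the other 10, that maximum being HFD 3. In those 10 libraries, 3 of HFD plus HQHF, 4 of HFD and 3 of control, totals ran from 36198931 to 46454404 counts. Control 1 was marked by pancreatic acinar genes, which took 0.167% of its counts. Genes with enough reads in the 10 libraries numbered 13832, and all 10 genes of the family were among them. Differences were tested with edgeR's quasi-likelihood test on trimmed-mean (TMM) scaled counts, p-values were adjusted by Benjamini-Hochberg over all 13832 genes, and a gene is said to have risen or fallen when its adjusted p was under 0.05. Nothing in the labels says more about the separation of the mice than their titles and batch codes, so the p-values measure the spread between these libraries. In bulk liver, fewer cells of a type and less RNA per cell cannot be told apart.

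Promoter sequence is shown for Anxa2 and S100a11, which had the largest differences, for Anxa5, which also changed in HFD livers and with HQHF, and for Anxa7, which was not called in any comparison on TMM-scaled counts. The windows come from RefSeq on GRCm38.p6, cover the 200 bases before the annotated start, and are written 5′ to 3′ on the strand of the gene: chr9:69453483-69453682 (plus) for Anxa2, chr3:93520296-93520495 (plus) for S100a11, chr3:36475888-36476087 (minus) for Anxa5 and chr14:20480134-20480333 (minus) for Anxa7. Capitals mark matches, on either strand, to the AP-1 site (TGANTCA), the GC box (GGGCGG) or the TATA box (TATAAA).
Anxa2: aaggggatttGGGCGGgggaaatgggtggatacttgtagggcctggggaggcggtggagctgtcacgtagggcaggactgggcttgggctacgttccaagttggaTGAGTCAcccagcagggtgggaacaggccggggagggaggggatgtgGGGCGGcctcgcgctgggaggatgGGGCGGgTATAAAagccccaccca
S100a11: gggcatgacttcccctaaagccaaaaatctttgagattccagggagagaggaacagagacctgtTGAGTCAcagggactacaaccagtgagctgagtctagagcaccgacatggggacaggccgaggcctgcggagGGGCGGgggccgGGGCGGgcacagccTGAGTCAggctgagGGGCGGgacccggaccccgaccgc
Anxa5: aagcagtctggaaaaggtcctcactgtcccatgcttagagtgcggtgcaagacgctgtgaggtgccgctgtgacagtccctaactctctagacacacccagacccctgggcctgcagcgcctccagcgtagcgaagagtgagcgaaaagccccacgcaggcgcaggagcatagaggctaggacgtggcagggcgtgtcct
Anxa7: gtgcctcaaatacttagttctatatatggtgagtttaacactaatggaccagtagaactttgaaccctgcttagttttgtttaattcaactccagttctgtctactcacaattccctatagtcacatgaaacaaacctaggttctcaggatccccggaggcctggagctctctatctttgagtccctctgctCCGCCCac
Anxa2 had 1 match to the AP-1 site in these bases and S100a11 had 2, all in the form TGAGTCA, which reads as an AP-1 match on both strands. Over the full windows, from 250 bases before to 50 after the start, an AP-1 match stood in 2 of the 7 genes of the family with an entry (Anxa1, Anxa2, Anxa4, Anxa5, Anxa7, Anxa11 and S100a11), and in 7.81% of all 32851 promoters of the table. GC boxes stood in 5 of the 7 (Anxa2, Anxa4, Anxa7, Anxa11 and S100a11) and in 35.7% of all promoters, and TATAAA in Anxa1 and Anxa2 and in 13.6% of all. The CCAAT box (CCAAT), in 37.4% of all promoters, and the ETS core (GAGGAAG), in 13.6%, had no match in the 7, and the TEAD core (GGAATG), in 14.7%, had a match in Anxa1. These motifs do not overlap one another in the 4 windows printed. Anxa3, Anxa6 and S100a10 had no entry under their symbols among these promoters. Anxa4 and Anxa7 had more than 1 entry, and only the first of each was used, which for Anxa7 is the window printed. A match is a run of letters and was not tested as a site of any factor.

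Anxa2 and S100a11 were higher in HFD livers than in control livers by more than 7-fold, and Anxa1, Anxa3, Anxa4 and Anxa5 were higher by 1.51-fold to 3.29-fold. Anxa6, Anxa7, Anxa11 and S100a10 were not called on TMM-scaled counts, but Anxa6, Anxa7 and Anxa11 were called higher in HFD livers when libraries were scaled by their totals. Anxa1, Anxa2, Anxa3, Anxa5 and S100a11 were lower in HFD plus HQHF livers than in HFD livers by 2.44-fold to 6.77-fold, and none of the 10 genes was called between HFD plus HQHF and control livers. Thus 6 of the 10 genes rose and 0 fell in HFD against control, where 16.3% of all genes tested rose and 9.89% fell. In HFD plus HQHF against HFD 5 of the 10 fell and 0 rose, where 11.1% of all genes tested fell and 7.85% rose. Both comparisons use the same 4 HFD libraries, so they are not independent of each other. The median log2 fold change of the 10 genes was 0.97 in HFD against control and -0.91 in HFD plus HQHF against HFD, beside 0.06 and -0.07 over all genes tested. Anxa4 lost its call in HFD against control, and Anxa1 and Anxa3 lost theirs in HFD plus HQHF against HFD, when certain single libraries were left out. Leaving out HFD plus HQHF 1 or 4 left 3 of the 10 genes called in that comparison. With HFD plus HQHF 3 and control 2 included, 0 of the 10 were called in any comparison by edgeR. Of the 10, 1, Anxa4, had an unadjusted p under 0.05 in HFD against control and in HFD plus HQHF against HFD. The shares of all genes with such a p were 13.3% and 11.9%. In HFD plus HQHF against control 0 of the 10 had one.

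**Figure D1:**
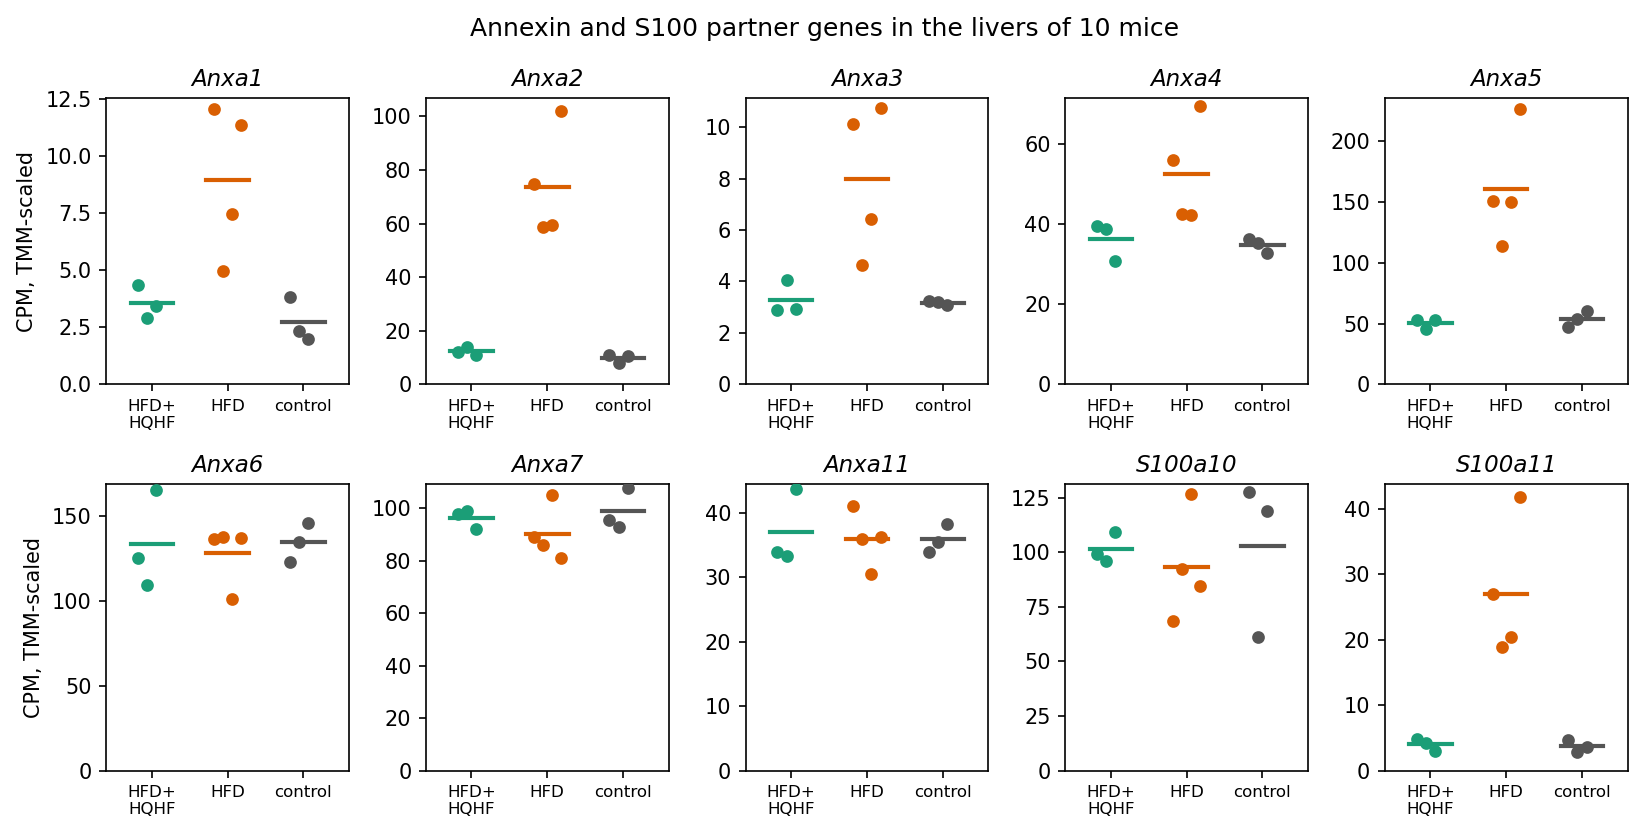
Level of each of the 10 genes in the 10 libraries, in CPM scaled by TMM on linear axes that start at 0. Points are mice and bars are group means (HFD plus HQHF, n = 3, then HFD, n = 4, then control, n = 3). Anxa2 averaged 73.8 CPM in the HFD livers, against 9.77 CPM in control livers, while Anxa7 averaged 90.2 and 98.7 CPM in them.

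Annexin A2 brings plasminogen and its activator together at the cell surface and organises actin at membranes. Anxa2 had 12.2, 14.1 and 10.8 CPM in HFD plus HQHF livers 1, 2 and 4, 74.8, 58.6, 59.6 and 102 CPM in HFD livers 1 to 4, and 10.8, 7.87 and 10.7 CPM in control livers 1, 3 and 4. The 4 HFD livers all lay far above the other 6, with HFD 4 highest, and the HFD plus HQHF and control livers lay next to each other. Every HFD plus HQHF liver was above every control liver by a small margin. That margin was lost in CPM of library totals, with 9.16 in HFD plus HQHF 4 and 9.26 in control 1. Anxa2 rose 7.56-fold in HFD against control (log2 fold change 2.92 ± 0.23, SE; adjusted p = 0.000248). It fell by 2.58 on the log2 scale in HFD plus HQHF against HFD (SE 0.23; adjusted p = 0.000535), a level 5.96-fold lower. Against control, HFD plus HQHF livers differed by 0.34 (95% interval -0.16 to 0.84; adjusted p = 0.772).

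S100a10, which docks on the N-terminal tail of annexin A2 and links its molecules in pairs, did not follow it. Its level was 99.0, 96.1 and 109 CPM in HFD plus HQHF livers, 68.4, 92.4, 127 and 84.5 CPM in HFD livers and 128, 61.1 and 119 CPM in control livers. The 3 groups overlapped, with control 3 the lowest and control 1 the highest of the 10. The log2 fold change was -0.14 in HFD against control (95% interval -0.72 to 0.43; adjusted p = 0.721) and 0.13 in HFD plus HQHF against HFD (-0.45 to 0.70; adjusted p = 0.760), and it turned to 0.49 and -0.45 (adjusted p = 0.143 and 0.191) when libraries were scaled by their totals. The ratio of S100a10 reads to Anxa2 reads within a library does not depend on the scaling. That ratio was 8.10, 6.82 and 10.1 in HFD plus HQHF livers, 0.915, 1.58, 2.13 and 0.827 in HFD livers and 11.9, 7.75 and 11.1 in control livers. Every HFD liver was thus below every other liver. The ratio was 7.99-fold lower in HFD against control and 6.52-fold higher in HFD plus HQHF against HFD (two-sided exact permutation p = 0.0571 for each, the smallest that 4 against 3 libraries allow with the smaller tail doubled). With HFD plus HQHF 3 and control 2 included, the log2 difference of the ratio was -2.34 (p = 0.0571, exact) and 1.63 (p = 0.200, exact).

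S100a11 is a calcium sensor that binds the N-terminal tail of annexin A1. S100a11 had 4.80, 4.23 and 2.93 CPM in HFD plus HQHF livers, 26.9, 18.8, 20.4 and 41.8 CPM in HFD livers and 4.70, 2.82 and 3.55 CPM in control livers. Again all 4 HFD livers lay above the other 6, with HFD 4 highest and HFD 2 lowest among them, and the HFD plus HQHF and control livers overlapped. S100a11 rose 7.30-fold in HFD against control (log2 fold change 2.87 ± 0.33, SE; adjusted p = 0.00117). In HFD plus HQHF against HFD it fell by 2.76 on the log2 scale (SE 0.32; adjusted p = 0.00207). Against control the HFD plus HQHF livers differed by 0.11 (95% interval -0.61 to 0.82; adjusted p = 0.965). S100a10 and S100a11 are neighbours in RefSeq, with 0 coding genes between them, yet their log2 fold changes in HFD against control were -0.14 and 2.87.

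Annexin A1 restrains cytosolic phospholipase A2 and, once secreted, acts through formyl peptide receptors to end inflammation. Anxa1 had 4.34, 2.90 and 3.45 CPM in HFD plus HQHF livers, 12.1, 4.96, 7.45 and 11.4 CPM in HFD livers and 3.81, 2.36 and 2.0 CPM in control livers. All 4 HFD livers were above the other 6, HFD 2 by a small margin, and the HFD plus HQHF and control livers overlapped. Anxa1 rose 3.29-fold in HFD against control (log2 fold change 1.72 ± 0.34, SE; adjusted p = 0.00782). It fell by 1.33 on the log2 scale in HFD plus HQHF against HFD (SE 0.34; adjusted p = 0.0236), a call that was lost without HFD 1 or without any 1 of the HFD plus HQHF libraries (adjusted p = 0.0533 to 0.0959). The ratio of S100a11 reads to Anxa1 reads was 1.11, 1.46 and 0.849 in HFD plus HQHF livers, 2.23, 3.78, 2.73 and 3.67 in HFD livers and 1.23, 1.19 and 1.77 in control livers. Here every HFD liver was above every other liver. On the log2 scale the ratio differed by 1.14 in HFD against control and by -1.45 in HFD plus HQHF against HFD (two-sided exact permutation p = 0.0571 for each), and by 1.63 and -1.29 with HFD plus HQHF 3 and control 2 included (p = 0.0286 for each, exact).

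**Figure D2:**
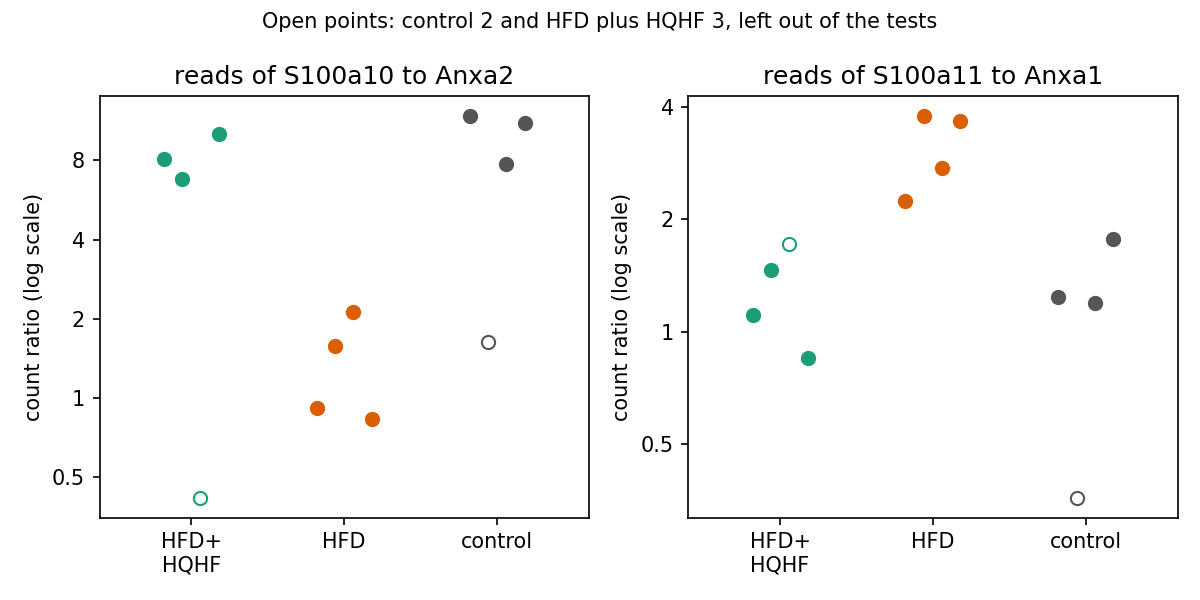
Ratio of the reads of each S100 gene to those of its annexin partner in each library, on a log axis, for HFD plus HQHF, HFD and control livers. Filled points are the 10 libraries compared, where the S100a10 to Anxa2 ratio is 0.827 to 2.13 in HFD livers and 7.75 to 11.9 in control livers. The open points, HFD plus HQHF 3 and control 2, lie at 0.414 and 1.63 in that panel.

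Annexin A5 covers phosphatidylserine, the lipid exposed by dying cells, and is used to stain them. Anxa5 had 52.9, 45.2 and 52.7 CPM in HFD plus HQHF livers, 151, 114, 150 and 227 CPM in HFD livers and 47.5, 53.6 and 60.1 CPM in control livers. The lowest HFD liver was far above the highest of the other 6, and HFD 4 was highest. Anxa5 rose 2.99-fold in HFD against control (log2 fold change 1.58 ± 0.22, SE; adjusted p = 0.00248) and fell by 1.67 in HFD plus HQHF against HFD (SE 0.22; adjusted p = 0.00271). The HFD plus HQHF and control livers overlapped, with a difference of -0.10 (95% interval -0.59 to 0.40; adjusted p = 0.948).

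Anxa3, an annexin the deposited annotation lists with Anxa1 and Anxa2 as an inhibitor of phospholipase A2, had 2.87, 4.04 and 2.93 CPM in HFD plus HQHF livers, 10.1, 4.65, 6.45 and 10.7 CPM in HFD livers and 3.23, 3.20 and 3.08 CPM in control livers. The 4 HFD livers were above the other 6, HFD 1 and 4 well above and HFD 2 just above. Anxa3 rose 2.52-fold in HFD against control (log2 fold change 1.33 ± 0.29, SE; adjusted p = 0.0106). It fell by 1.28 in HFD plus HQHF against HFD (SE 0.29; adjusted p = 0.0160), a call lost without HFD plus HQHF 1 or 4 (adjusted p = 0.0723 and 0.0513).

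Anxa4, an annexin of secretory and biliary epithelium, had 39.7, 38.8 and 30.9 CPM in HFD plus HQHF livers, 56.0, 42.6, 42.4 and 69.7 CPM in HFD livers and 36.4, 35.3 and 32.7 CPM in control livers. HFD 1 and 4 were high, HFD 2 and 3 were only just above the highest of the other 6. Anxa4 rose 1.51-fold in HFD against control (log2 fold change 0.60 ± 0.19, SE; adjusted p = 0.0384). That call was lost in 7 of the 10 fits that left out 1 library (without HFD plus HQHF 1 or 2, HFD 1 or 4, or control 1, 3 or 4; adjusted p = 0.0535 to 0.116) and in a fit of the HFD and control libraries alone (0.0629). The difference of HFD plus HQHF from HFD was -0.53 (95% interval -0.94 to -0.12; adjusted p = 0.0666), and it passed the test without HFD 2 or HFD 3 and when libraries were scaled by their totals (-1.07; adjusted p = 0.00224).

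Anxa6, Anxa7 and Anxa11 formed a flat group on TMM-scaled counts. Annexin A6, whose annexin core is duplicated, takes part in endosome and cholesterol traffic. Its gene had 125, 110 and 166 CPM in HFD plus HQHF livers, 137, 138, 101 and 137 CPM in HFD livers and 123, 135 and 146 CPM in control livers, and the groups overlapped. Annexin A7 (synexin) promotes membrane fusion in secretion, and Anxa7 had 97.8, 98.8 and 92.0 CPM in HFD plus HQHF livers, 89.0, 85.8, 105 and 81.0 CPM in HFD livers and 95.5, 93.0 and 108 CPM in control livers. Annexin A11 ties RNA granules to lysosomes, and Anxa11 had 33.9, 33.3 and 43.7 CPM in HFD plus HQHF livers, 41.1, 35.9, 30.5 and 36.2 CPM in HFD livers and 33.9, 35.4 and 38.3 CPM in control livers. No group stood apart in any of the 3 genes. In HFD against control the log2 fold changes were -0.07 for Anxa6 (95% interval -0.46 to 0.32), -0.13 for Anxa7 (-0.43 to 0.17) and 0.00 for Anxa11 (-0.31 to 0.32). These values depend on how libraries are scaled, since scaling by library totals gave 0.52, 0.48 and 0.60 (adjusted p = 0.0259, 0.0380 and 0.00764) and moved the median of all genes to 0.66. The values in HFD plus HQHF against HFD were 0.06, 0.09 and 0.04 with TMM, and -0.49, -0.46 and -0.50 (adjusted p = 0.0373, 0.0481 and 0.0196) with library totals, whose median over all genes was -0.62. The share of called genes that were higher was 62.3% in HFD against control and 41.5% in HFD plus HQHF against HFD with TMM, and 97.9% and 2.07% with library totals. With library totals, 9 of the 10 genes rose in HFD against control and 9 fell in HFD plus HQHF against HFD, all but S100a10 in each. Of all 13832 genes tested, 7041 rose and 6496 fell in those comparisons with that scaling.

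**Figure D3:**
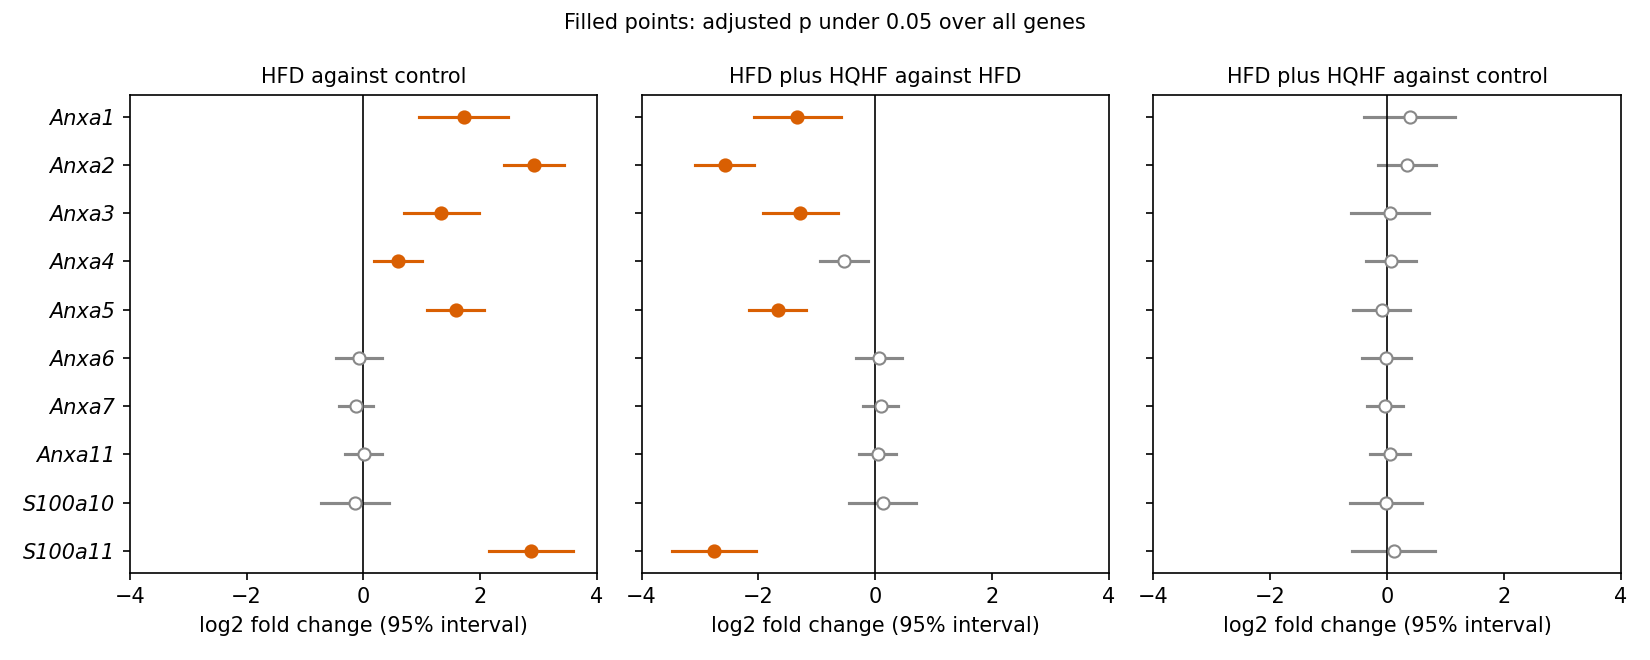
Log2 fold changes of the 10 genes with 95% intervals from edgeR on the 10 libraries, one panel per comparison. Filled points have an adjusted p under 0.05 over all 13832 genes, which holds for 6 genes in HFD against control, 5 in HFD plus HQHF against HFD and 0 in HFD plus HQHF against control.

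In HFD plus HQHF against control, 0 of the 10 genes were called by edgeR and 0 had an unadjusted p under 0.05. Across the genome, 0 of 13832 genes (0%) were called by edgeR, 1008 (7.29%) had an unadjusted p under 0.05 and DESeq2 called 72, none of them in the family. Fold changes of the 10 genes lay between -0.10 and 0.38 on the log2 scale, and the widest interval, that of Anxa1, reached from -0.40 to 1.17, so differences of about that size were not detectable with 3 livers per group. On TMM-scaled counts Anxa2 was the only 1 of the 10 genes whose HFD plus HQHF and control libraries did not overlap. The HFD plus HQHF ones were higher, as held for 8.4% of all genes tested. In CPM of library totals they overlapped for Anxa2, with 9.16 in HFD plus HQHF 4 and 9.26 in control 1. Against HFD, 6 of the 10 genes (Anxa1, Anxa2, Anxa3, Anxa4, Anxa5 and S100a11) had every HFD plus HQHF library below every HFD library, beside 17.2% of all genes. In HFD against control, 6 of the 10 (Anxa1, Anxa2, Anxa3, Anxa4, Anxa5 and S100a11) had every HFD library above every control library, beside 20.8% of all genes.

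The make-up of the annexin reads changed with the levels. Of all reads of the 12 annexins in the table, Anxa2 took 2.68% to 4.04% in HFD plus HQHF livers, 11.8% to 14.8% in HFD livers and 2.14% to 3.03% in control livers. Anxa5 took 12.98% to 14.3%, 23.5% to 32.9% and 13.4% to 15.0% in the same 3 groups. Anxa6 took 31.5% to 41.1% in HFD plus HQHF livers, 19.96% to 28.3% in HFD livers and 34.6% to 36.8% in control livers. The HFD range of each of these shares stood apart from those of the other groups. That of Anxa4, 8.39% to 10.1%, overlapped both other groups, as did that of Anxa1, and that of Anxa3 overlapped HFD plus HQHF. Shares are parts of a whole, so a share can fall while the level is flat. The log2 fold change of Anxa6 in HFD against control was -0.07 on TMM-scaled counts. Shares of reads also depend on transcript length, so they compare a gene between libraries and not one gene with another. Reads of the 12 annexins summed to 12905 to 15436 in HFD plus HQHF libraries, 25753 to 40036 in HFD libraries and 12654 to 14313 in control libraries.

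**Figure D4:**
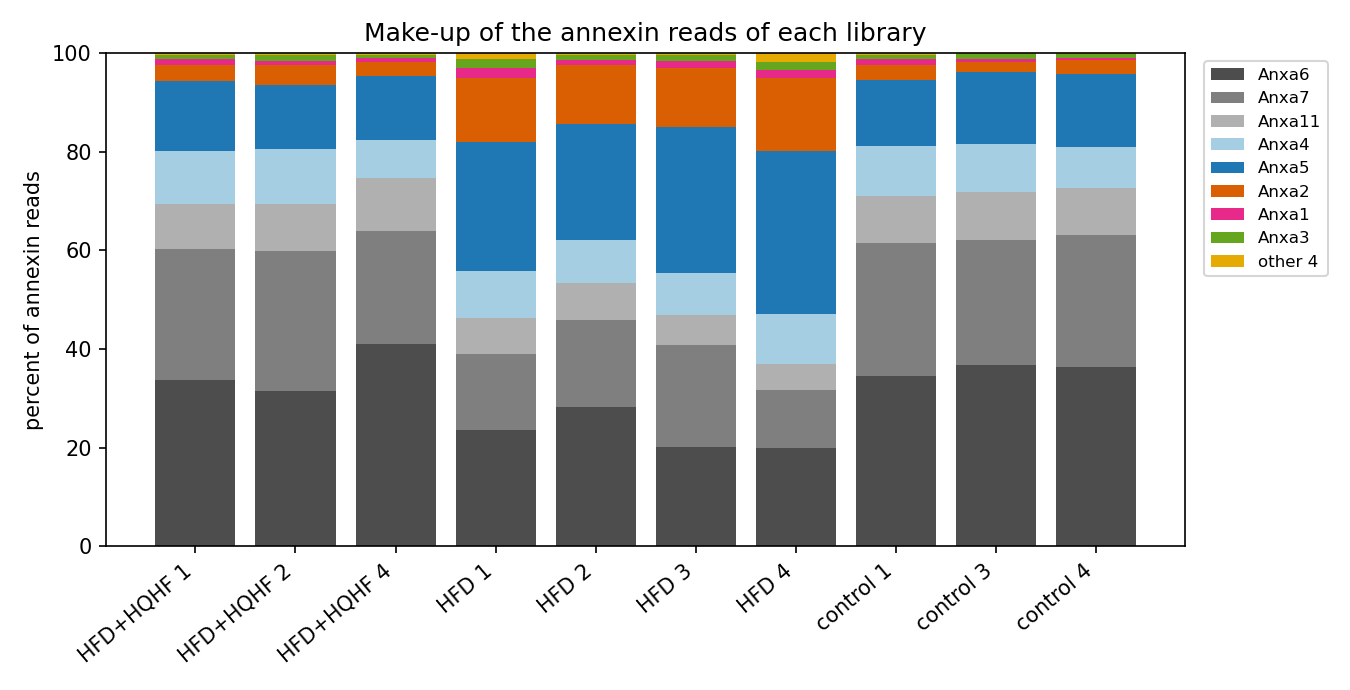
Stacked bars of each annexin's percentage of the reads of all 12 annexins, one bar per library, for the 10 libraries. Anxa2 takes 11.8% to 14.8% in HFD livers and at most 4.04% in the others, and the other 4 are Anxa8, Anxa9, Anxa10 and Anxa13.

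The way the 10 genes varied together was described by the root mean square difference of their log2 CPM, each centred on its mean over the 10 libraries. Anxa2 and S100a11 were 0.18 apart, Anxa6 and Anxa11 were 0.09 apart and Anxa1 and Anxa3 were 0.32 apart, while Anxa2 and its partner S100a10 were 1.43 apart. The genes outside the family closest to Anxa2 were Capg (0.21), an actin-capping protein of motile cells, Sema4d (0.27), a semaphorin of immune cells, and Lgals3 (0.32), the macrophage lectin galectin-3. Lgals3 had 7.55, 6.26 and 4.97 CPM in HFD plus HQHF livers, 71.8, 31.9, 49.1 and 52.3 CPM in HFD livers and 6.30, 5.30 and 7.36 CPM in control livers. The genes closest to S100a10 were Eef1akmt1 (0.12), a lysine methyltransferase, Coq4 (0.18), which serves coenzyme Q synthesis, and Klhl41 (0.20). Klhl41 had only 2 to 11 reads per library. For these distances 0.5 was added to each CPM before the log, which flattens a gene with so few reads. These are distances over 10 libraries and say nothing of shared control.

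Markers of some cell types moved with the 6 genes that rose, and those of others did not. The 12 markers of monocytes and recruited macrophages, Lgals3 among them, took 0.00459% to 0.00516% of counts in HFD plus HQHF livers, 0.0295% to 0.0918% in HFD livers and 0.00390% to 0.00530% in control livers. Of these 12, 11 rose in HFD against control and 10 fell in HFD plus HQHF against HFD. Among the HFD livers this list was highest in HFD 4 and lowest in HFD 2. So were Anxa2, Anxa3, Anxa4, Anxa5 and S100a11 in CPM of library totals, whereas Anxa1 and Lgals3 of the list itself were highest in HFD 1. On TMM-scaled counts Anxa4 was lowest in HFD 3, at 42.4 CPM against 42.6 CPM in HFD 2. The macrophage list was not alone in being highest in HFD 4. So were the stellate, cholangiocyte, red blood cell and hepatocyte lists, with HFD 3 lowest, or HFD 1 for red blood cells. The remaining lists were highest in other HFD livers. The 10 stellate cell markers took 0.0339% to 0.0406%, 0.0666% to 0.181% and 0.0296% to 0.0388% in the 3 groups, 7 rising and 7 falling in those comparisons. The 9 cholangiocyte markers tested included 1 that rose, with a share of 0.00288% to 0.00354% in HFD plus HQHF livers, 0.00407% to 0.0525% in HFD livers and 0.00319% to 0.00380% in control livers. All 9 had positive log2 fold changes in HFD against control, with a median of 3.15, beside 3.08 for the macrophage list. The lists are not separate, since Spp1 is in both of these and Krt19 is in the cholangiocyte and mesothelial lists. The 12 hepatocyte markers took 8.53% to 11.6%, 6.97% to 11.1% and 11.02% to 14.2%, 6 falling in HFD against control and 5 rising in HFD plus HQHF against HFD. Of 5 tested neutrophil markers 4 rose in HFD against control, of 5 mesothelial markers 3 rose, of 10 T and NK cell markers 3 rose, and of 10 Kupffer cell markers 2 rose and 4 fell. Of 8 B and plasma cell markers 0 were called in that comparison, and of 3 tested adipocyte markers 0 were called. Of 6 red blood cell markers 0 rose and 1 fell, and the 1 pancreatic acinar marker tested fell. The share of all genes that rose in HFD against control was 16.3% and that of genes that fell 9.89%. In HFD plus HQHF against HFD, 11.1% of all genes fell and 7.85% rose. Of 10 endothelial markers, 0 were called in HFD against control by edgeR or by DESeq2, and 0 had an unadjusted p under 0.05, beside 40.9% of all genes by edgeR. Their share was 0.0466% to 0.0577% in HFD plus HQHF livers, 0.0620% to 0.0759% in HFD livers and 0.0404% to 0.0523% in control livers. The HFD range of this list was thus also above the others. Shares of all lists are of library totals, while the calls by edgeR rest on TMM-scaled counts. For the same 10 markers in HFD plus HQHF against HFD, edgeR called 0 and DESeq2 called 2, and 3 had an unadjusted p under 0.05 by each tool, beside 36.1% of all genes by edgeR. No marker of hepatocytes or of recruited macrophages was at 0 over the 10 libraries. The part of these cells in the annexin and S100 differences was not tested.

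**Figure D5:**
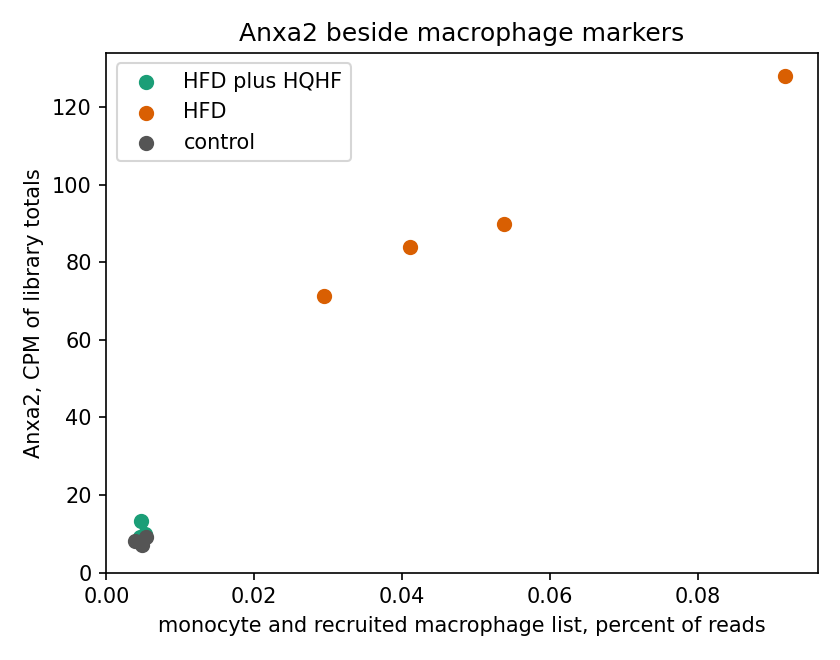
Anxa2 (CPM of the library total) against the summed share of counts of the 12 monocyte and recruited macrophage markers in each of the 10 libraries, on linear axes. The 4 HFD livers lie between 0.0295% and 0.0918%, with Anxa2 highest at the highest share, and the 6 HFD plus HQHF and control livers lie together near the origin at 0.00390% to 0.00530%.

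The rest of both families was partly at the edge of detection. Of 4 further annexins, Anxa9 and Anxa13 had enough reads to be tested. Both rose in HFD against control, where 16.3% of all genes rose. In HFD plus HQHF against HFD 0 of these 2 were called, where 11.1% of all genes fell and 7.85% rose. Anxa9, an annexin whose human protein lacks working calcium sites, had 0.833, 0.496 and 0.654 CPM in HFD plus HQHF livers, 0.877, 1.08, 1.02 and 3.03 CPM in HFD livers and 0.473, 0.384 and 0.413 CPM in control livers. Its log2 fold change was 1.82 (adjusted p = 0.0237) in HFD against control and -1.18 (adjusted p = 0.10) in HFD plus HQHF against HFD, and HFD 4 stood out. Anxa13, known from intestinal epithelium, had 0.574, 0.835 and 0.549 CPM in HFD plus HQHF livers, 5.06, 0.919, 0.470 and 10.01 CPM in HFD livers and 0.709, 0.538 and 0.413 CPM in control livers. Its log2 fold change of 2.88 (adjusted p = 0.0456) came with HFD 1 and 4 high and HFD 2 and 3 near the other livers. Anxa8 had 0 to 19 reads per library and Anxa10 had 37 reads in HFD 1 and at most 2 in each of the others.

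Of 12 further S100 genes in the table, 8 were tested, 5 rose and 2 fell in HFD against control, beside 16.3% and 9.89% of all genes, while 2 fell and 1 rose in HFD plus HQHF against HFD, beside 11.1% and 7.85%. S100a6, calcyclin, which also binds annexins, had 1.26, 1.10 and 0.941 CPM in HFD plus HQHF livers, 14.9, 3.44, 5.90 and 7.75 CPM in HFD livers and 2.57, 0.564 and 1.08 CPM in control livers. All 4 HFD livers were above the other 6, and in log2 units S100a6 rose by 2.51 in HFD against control (adjusted p = 0.0135) and fell by 2.86 in HFD plus HQHF against HFD (adjusted p = 0.0126). S100a4, found in motile and fibroblast-like cells, rose by 2.45 (adjusted p = 0.0313), and S100a8 and S100a9, the calprotectin subunits of neutrophils and monocytes, rose by 2.21 and 1.78 (adjusted p = 0.0165 and 0.0288). S100g, a calcium buffer, had 1, 3 and 0 reads in HFD plus HQHF libraries, 108, 53, 13 and 28 reads in HFD libraries and 3, 0 and 0 reads in control libraries. It rose in HFD against control (adjusted p = 0.0136) and fell in HFD plus HQHF against HFD (adjusted p = 0.0203). S100g passed the count filter only through the HFD libraries, the group where it was high. Its calls, which are among those of the S100 genes counted above, are therefore no support of their own. The 202 reads of the HFD livers against 3 of the control livers were, scaled for library size, 33.5-fold more, with a 95% interval of 11.3 to 164 that covers counting error only. S100a1, a partner of calcium pumps of muscle, and S100a13 fell, by 0.72 (adjusted p = 0.00981) and by 1.04 (adjusted p = 0.0135). S100a1 had 97.4, 103 and 76.9 CPM in HFD plus HQHF livers, 44.6, 47.1, 59.5 and 49.1 CPM in HFD livers and 78.4, 76.8 and 92.4 CPM in control livers, and it rose by 0.88 in HFD plus HQHF against HFD (adjusted p = 0.00685). S100a16 differed by 0.07 in HFD against control and was not called.

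Among 12 genes of membrane repair, 2 rose in HFD against control, Myof and Ahnak, a share near the 16.3% of all genes that rose. In HFD plus HQHF against HFD, Myof and Ahnak fell and Pdcd6, the calcium sensor ALG-2, rose, beside 11.1% and 7.85% of all genes. The median log2 fold change of the 12 was 0.14 and -0.08 in those comparisons. Myof encodes myoferlin, a ferlin of membrane fusion, and had 7.35, 7.22 and 6.80 CPM in HFD plus HQHF livers, 35.9, 19.0, 22.0 and 50.04 CPM in HFD livers and 5.83, 5.56 and 4.57 CPM in control livers. In log2 units Myof rose by 2.57 (adjusted p = 0.00151) and fell by 2.15 (adjusted p = 0.00387) in those comparisons. Ahnak, a giant scaffold that binds the annexin A2 and S100a10 complex, rose by 1.60 (adjusted p = 0.00344) and fell by 1.31 (adjusted p = 0.00910). Pdcd6, named after its values were seen, had a log2 fold change of 0.73 in HFD plus HQHF against HFD (adjusted p = 0.0168).

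The annexin A2 and S100a10 complex serves as a receptor in the plasminogen system. Of 7 genes of that system, 4 rose (Plaur, Plau, Plat and Plgrkt), 0 fell and 3 (Plg, Serpinf2 and Eno1) were not called in HFD against control, where 16.3% of all genes rose and 9.89% fell. In HFD plus HQHF against HFD 3 of the 7 fell (Plaur, Plau and Plat), 0 rose and 4 were not called, where 11.1% of all genes fell. All but Plaur and Plau were named after their values were seen. Plaur, the urokinase receptor, had 0.373, 0.391 and 0.235 CPM in HFD plus HQHF livers, 3.49, 2.04, 2.82 and 3.54 CPM in HFD livers and 0.184, 0.333 and 0.476 CPM in control livers. In log2 units Plaur rose by 3.17 in HFD against control (adjusted p = 0.00166) and fell by 3.15 in HFD plus HQHF against HFD (adjusted p = 0.00246). Plau, urokinase, rose by 2.49 (adjusted p = 0.00329) and fell by 2.07 (adjusted p = 0.00797). Plat, tissue plasminogen activator, had 0.402, 0.261 and 0.994 CPM in HFD plus HQHF livers, 5.22, 3.44, 6.33 and 20.3 CPM in HFD livers and 0.657, 0.128 and 0.635 CPM in control livers. Plg, plasminogen itself, which hepatocytes secrete, had 3140, 1914 and 3664 CPM in HFD plus HQHF livers, 2097, 2012, 1247 and 1651 CPM in HFD livers and 2995, 2810 and 3374 CPM in control livers. Every HFD liver was below every control liver for Plg, with a log2 fold change of -0.80 in HFD against control (adjusted p = 0.0505) and 0.73 in HFD plus HQHF against HFD (adjusted p = 0.0802). Serpinf2, which encodes the plasmin inhibitor, and Eno1, an enolase that can bind plasminogen, had log2 fold changes of -0.41 and -0.08 in HFD against control (adjusted p = 0.289 and 0.871). Of 6 genes of annexin A1 signalling, 0 were called in either comparison by edgeR or by DESeq2, where edgeR called 26.2% and 18.9% of all genes. By both tools 2 of the 6 had an unadjusted p under 0.05 in HFD against control and 0 in HFD plus HQHF against HFD, beside 40.9% and 36.1% of all genes by edgeR. The smallest p-values in HFD against control were those of Pla2g4a, cytosolic phospholipase A2 (log2 fold change 0.76; adjusted p = 0.112), and Fpr1, a formyl peptide receptor (-0.80; adjusted p = 0.116).

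With HFD plus HQHF 3 and control 2 included, where 0 of the 10 genes were called by edgeR, 7 genes of the whole table (0.0503%) were called in HFD against control, 1 (0.00718%) in HFD plus HQHF against HFD and 0 (0%) in HFD plus HQHF against control. An unadjusted p under 0.05, which Anxa4 alone of the 10 had in the first 2 comparisons, was reached by 13.3% and 11.9% of all genes in them. Both libraries were high in the genes that rose: Anxa1 had 36.3 CPM of the library total in HFD plus HQHF 3 and 416 in control 2, Anxa2 had 145 and 247, and S100a11 had 62.1 and 149. With them, the log2 fold change in HFD against control was 0.70 for Anxa2, 0.91 for Anxa5 and 0.07 for S100a11, and it changed sign for Anxa1 (-2.88) and Anxa3 (-0.75). The values in HFD plus HQHF against HFD were -1.14 for Anxa2, -0.92 for Anxa5, -1.01 for S100a11, -0.52 for Anxa3 and -0.03 for Anxa1. Anxa4 kept 0.69 and -0.57 in those comparisons (adjusted p = 0.239 and 0.360). Anxa6, Anxa7, Anxa11 and S100a10 were at -0.13, -0.08, 0.09 and -0.60 in HFD against control. Without HFD 3, the library with adipocyte reads, 6 of the 10 genes were called in HFD against control and 6 in HFD plus HQHF against HFD, and without control 1, the library with acinar reads, 5 were called in each.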

How the data were processed

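Long RNA libraries of 12 livers were used. The deposited values are whole-number counts per gene made by the authors, with no normalization. The submitters' processing notes name HISAT2, RSEM and GRCm39. Not given in the sources used here are their versions and roles, the counting step, its use of strand and its treatment of reads shared with near-identical copies. The 12 small RNA libraries were not used here. The genes and lists were chosen with earlier results of these data known, and HFD plus HQHF 3 and control 2 were left out by the rule that came with the list.

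Genes were tested with edgeR 4.0.16 under R 4.3.3 (filterByExpr by group, TMM, robust quasi-likelihood fit of the 3 groups on 10 libraries, Benjamini-Hochberg adjustment, threshold 0.05). Standard errors are the log2 fold change over the root of F. Count ratios were compared on the log2 scale after adding 0.5 to each count, by an exact permutation test with the smaller tail doubled. Each library has its own batch code, so no batch term could be fitted. Alternatives were all 12 libraries, other scalings (RLE, library totals), DESeq2 1.42.0, other filters (none, or at least 1 CPM in 3 libraries), 2 groups alone, the replicate number as a block, a pseudocount of 5 and leaving out each library. Named besides the 10 genes are all tested members of both families, the 2 genes with the smallest p in HFD against control of each other list, and the 3 genes nearest to Anxa2 and to S100a10. Pdcd6 and the plasminogen genes other than Plaur and Plau were named outside this rule, after their values were seen. A gene of the plasminogen list is not reported here. The code was tested on simulated data. Figures used Python 3.11.15 with matplotlib 3.10.9. Intervals of counts cover counting error only, and depth is given with the results.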

Additional observations from a re-analysis of the deposited data

Results flagged for a closer look

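Across 32 groups of 4 libraries tested, 12 values lay apart from the other 3 of their group by more than Dixon's 95% critical value, where chance flags about 1 group in 20. Of these, 11 were libraries left out of the comparisons, in log2 CPM of the library total. Every control and HFD plus HQHF group tested held such a library, already known to stand apart. The groups also share libraries and are not independent, so the count of flags cannot be judged against that rate. HFD plus HQHF 3 was high for Anxa1 (5.18), Anxa2 (7.18), Anxa5 (8.11) and S100a11 (5.96). Control 2 was high for Anxa1 (8.70), Anxa2 (7.95), Anxa3 (6.16), Anxa5 (8.16), Anxa6 (7.94), Anxa7 (6.99) and S100a11 (7.22). Among the 10 libraries compared, Anxa6 was low in HFD 3 at 6.66 log2 CPM (101 CPM), against 137 to 138 CPM in the other HFD livers, and that library also held adipocyte reads. The part of adipocyte reads in it was not tested.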

How the results depend on the processing

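The test called 3625 genes in HFD against control, 2618 in HFD plus HQHF against HFD and 0 in HFD plus HQHF against control. With all 12 libraries it called 7, 1 and 0 genes, and 0 of the 10 family genes in each. With library totals it called 7195 and 6633 genes in those first 2 comparisons, and 9 of the 10 family genes in each. Leaving out 1 library gave 1568 to 3882 and 633 to 3301 genes, and 5 to 6 and 3 to 6 family genes. Same-numbered libraries did not vary together (8 pairs, correlation of deviations -0.09 to 0.15, 1 over 0.1), and what the number stands for is not given in the labels. A replicate block on it called 1719 genes in HFD plus HQHF against HFD. DESeq2 called 72 genes in HFD plus HQHF against control and a fit of those 2 groups alone called 1. Calls of Anxa2, Anxa5 and S100a11 in both comparisons held in every fit on the 10 libraries and with each library left out. The cause of these shifts was not tested.

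Directions that changed were mostly those of values near 0. With all 12 libraries, HFD against control gave -2.88 for Anxa1 and -0.75 for Anxa3. The values of HFD plus HQHF against HFD were -0.027 for Anxa7 and -0.063 for S100a10. HFD plus HQHF against control gave -2.91 for Anxa1, -0.43 for Anxa2, -1.27 for Anxa3, -0.94 for S100a11 and 0.29 for Anxa6. Anxa11 in HFD against control was -0.032 with RLE, -0.031 with DESeq2, -0.028 with the 2 groups alone and -0.0062 with no filter. The replicate block gave 0.025 for Anxa5 in HFD plus HQHF against control and -0.0012 for Anxa6 in HFD plus HQHF against HFD, and ended the call of Anxa4 in HFD against control (adjusted p = 0.0756). With library totals, HFD against control gave 0.52, 0.48 and 0.49 for Anxa6, Anxa7 and S100a10. HFD plus HQHF against HFD gave -0.49, -0.46, -0.50 and -0.45 for Anxa6, Anxa7, Anxa11 and S100a10, and HFD plus HQHF against control gave 0.035, 0.020 and 0.048 for Anxa6, Anxa7 and S100a10.

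With 1 library left out, HFD against control ranged from -0.073 to 0.077 for Anxa11, -0.14 to 0.031 for Anxa6 and -0.47 to 0.040 for S100a10. HFD plus HQHF against HFD ranged from -0.089 to 0.12 for Anxa11, -0.12 to 0.19 for Anxa6 and -0.00031 to 0.31 for S100a10. HFD plus HQHF against control ranged from -0.093 to 0.12 for Anxa11, -0.13 to 0.14 for Anxa3, -0.20 to 0.11 for Anxa6, -0.091 to 0.029 for Anxa7, -0.29 to 0.17 for S100a10 and -0.066 to 0.32 for S100a11. The ratio of S100a10 to Anxa2 ranged from -3.25 to -2.79 and from 2.50 to 2.96 (log2) in the 2 comparisons, and that of S100a11 to Anxa1 from 1.03 to 1.32 and from -1.65 to -1.26. The ratio of S100a11 to Anxa1 with all 12 libraries was 1.63 and -1.29. Counting regroupings by absolute difference in place of doubling the tail, which was chosen with these data already seen, left the ratios of S100a10 to Anxa2 at -3.00 and 2.71 and those of S100a11 to Anxa1 at 1.14 and -1.45 and gave an exact permutation p of 0.0286 for each. With 3 or 4 livers per group, the 95% intervals of the 10 genes are the limit on what can be read from a value not called.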
